A study of Mus musculus with 6 samples.

Results

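The probes described here are those of an expression array whose names carry the word lincRNA, for long intergenic non-coding RNA. They were chosen by name alone, with no use of their signals, and numbered 1753 of the 60915 probes on the array. The names follow 1 pattern, with the prefix human or mouse, a region number and a plus or minus sign, as in humanlincRNA2438+. The prefix was human for 1104 probes and mouse for 649, and the sign was plus for 871 and minus for 882. They cover 889 region numbers, of which 864 had a plus and a minus probe and 25 had only 1 of them. None of the names gives a chromosome, and the files do not state what the prefix or the sign stands for, so the probes were grouped by these parts of the name and by region number, with no genome position and no host gene.

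Hippocampal RNA came from C57BL/6 offspring on postnatal day 20, with 3 samples of vehicle offspring and 3 of nicotine offspring and 1 array per sample. The drinking water of the vehicle dams held 1% saccharin, and that of the nicotine dams held nicotine at 200 μg/ml with the same 1% saccharin from before mating until weaning, so saccharin was common to both groups. Both groups addressed whether maternal nicotine changed hippocampal expression. The labels do not say that the 3 samples of a group came from separate litters or animals, so the p-values given here measure the spread between these samples, which may in part be technical.

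Long intergenic non-coding RNAs are transcripts from between protein-coding genes that hold no long reading frame. Many are found at low levels and in few tissues or cell types, brain tissue is known to express many of them, and some act on chromatin or on the transcription of neighbouring genes. Their transcription can run in either direction at one locus, so that arrays for such regions may carry a probe for each strand. Whole-tissue RNA cannot tell fewer cells that make a transcript from less of it in each cell.

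Signals are given as log2 of the background-subtracted spot intensity minus the 75th percentile of that array, so that 0 marks the signal that 25% of probes exceeded. The arrays lay on 2 slides. Slide 1 held vehicle replicates 1 and 2 and nicotine replicates 2 and 3, and slide 2 held vehicle replicate 3 and nicotine replicate 1. On slide 2 the 75th percentile of the intensity was near 150, against 291 to 345 on slide 1, and 48.4% to 49.0% of all spots were well above background, against 63.2% to 66.4% on slide 1. No spot was saturated. The files pair gene names with 15 reference probes only, so the markers of hippocampus could not be checked.

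Most of the lincRNA probes gave no signal well above background, which is the scanner software's own flag for a spot brighter than its surroundings. In the vehicle offspring 24.4%, 24.0% and 10.4% of the lincRNA probes carried this flag in replicates 1, 2 and 3. In the nicotine offspring the shares were 10.3%, 23.6% and 26.6%. The low value of each group was its array on slide 2, and the groups overlapped. Probes named ASMM10P, the main kind on the array with 58141 probes, were flagged at 65.2%, 64.7% and 49.7% in vehicle offspring and at 50.3%, 64.8% and 67.9% in nicotine offspring. The share of lincRNA probes was lower on 6 of 6 arrays, by a mean of -40.5 percentage points ± 0.741 (SD, n = 6; exact two-sided sign-flip permutation test, p = 0.03125, the smallest that 6 arrays allow). The gap in percentage points ran from -41.2 to -39.3, but as a ratio it differed between slides, with the ASMM10P share 2.55 to 2.75 times that of the lincRNA probes on slide 1 and 4.79 and 4.88 times on slide 2.

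**Figure D1:**
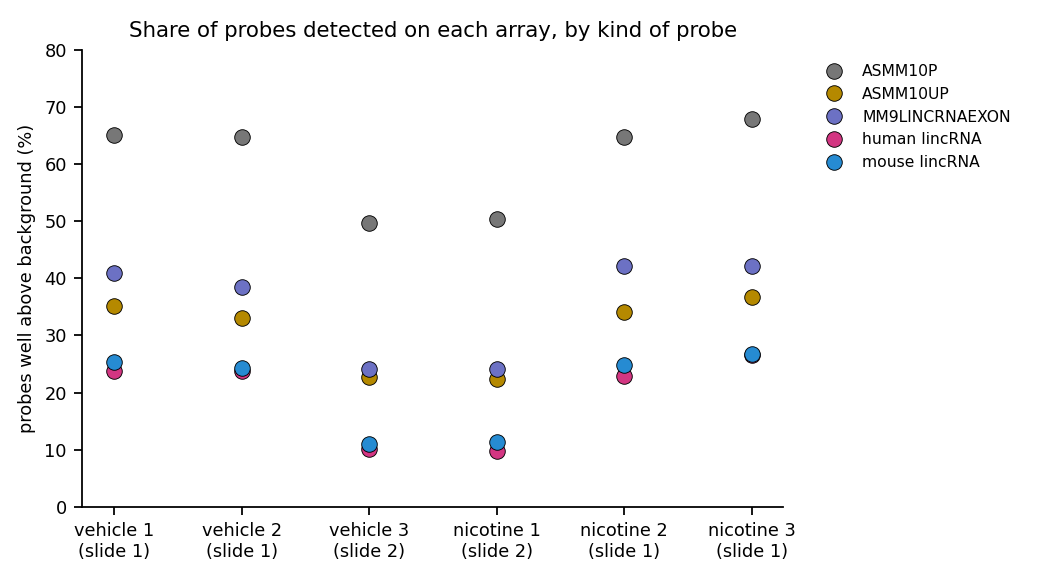
Share of probes well above background (%, vertical axis) on each of the 6 arrays (horizontal axis), with 1 point for each kind of probe. The human lincRNA probes lie lowest on every array, at 9.78% and 10.1% on slide 2 and at 22.8% to 26.5% on slide 1, with the mouse probes just above them.

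Other kinds of probe lay between these levels. ASMM10UP probes, 923 in number, were flagged at 22.3% to 36.7%, and lincRNA probes were below them by a mean of -10.8 percentage points ± 1.23 (SD, n = 6; exact sign-flip permutation test, p = 0.03125). The array also has 83 probes named MM9LINCRNAEXON in capitals, which do not share the name pattern and were not counted among the 1753. They were flagged at 24.1% to 42.2%, and the lincRNA probes were below them by a mean of -15.5 percentage points ± 1.89 (SD, n = 6; exact sign-flip permutation test, p = 0.03125). Between the prefixes the difference was small. Mouse probes were flagged more often than human probes on 6 of 6 arrays, by 1.11 percentage points ± 0.649 (SD, n = 6; exact sign-flip permutation test, p = 0.03125), with a range from 0.271 to 2.02. In these 4 comparisons of shares every p was at its smallest value, so adjustment over the 4 by Benjamini-Hochberg leaves them at 0.03125. The same probes were read on every array, so these tests speak for these probes over arrays and not for other probes of the same kind.

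The level of the lincRNA probes was also below that of ASMM10P probes. Where only probes well above background were taken, the median log2 signal of lincRNA probes was -2.38, -2.38 and -1.42 in vehicle offspring and -1.34, -2.35 and -2.71 in nicotine offspring. ASMM10P probes had medians of -0.82, -0.83 and 0.11 in vehicle offspring and 0.06, -0.81 and -0.98 in nicotine offspring. The lincRNA median was lower on 6 of 6 arrays, by a mean of -1.55 ± 0.10 (SD, n = 6) on the log2 scale (exact sign-flip permutation test, p = 0.03125). Over all probes, flagged or not, the difference was -3.24 ± 0.73 (SD, n = 6; exact sign-flip permutation test, p = 0.03125), and with normexp background correction it was -0.75 ± 0.22 (SD, n = 6). The value of -3.24 sets background readings against signals, since most lincRNA probes were not well above background on any array. Probes differ in sequence and in how strongly they bind, so these are levels of signal of 2 kinds of probe and not amounts of RNA.

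Of the 1753 lincRNA probes, 1179 (67.3%) were not well above background on any array and 154 (8.78%) were on all 6. For ASMM10P probes these shares were 28.4% and 47.6%. A further 161 lincRNA probes (9.18%, against 9.82% of ASMM10P probes) were detected on the 4 arrays of slide 1 and on neither array of slide 2, and 5 showed the opposite pattern. No lincRNA probe was well above background on all 3 vehicle arrays and on no nicotine array. The opposite, a signal on every nicotine array and none on vehicle arrays, was seen at mouselincRNA1177- only. The shares of all probes with these patterns were not counted, so nothing about the lincRNA probes is read from them.

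The comparison of nicotine with vehicle offspring was limited to probes with a signal well above background throughout the 3 arrays of 1 group or of both. This held for 182 lincRNA probes (10.4%), against 29808 of the ASMM10P probes (51.3%). Since each group has an array on slide 2, the filter asks for a signal on at least 1 array of that dimmer slide. It left 107 of the human probes (9.69%) and 75 of the mouse probes (11.6%), and 90 plus and 92 minus probes. Among the 182, 154 were well above background on all arrays, 12 on all vehicle arrays but not all nicotine arrays, and 16 on all nicotine arrays but not all vehicle arrays. The mean log2 signal of the 182 ran from -3.93 to 8.45 with a median of -1.06, against -0.04 over all 30233 probes compared. It was above 0 for 47 of them (25.8%, against 49.4% of all probes compared) and above 3 for 13 (7.14%, against 18.2%).

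**Figure D2:**
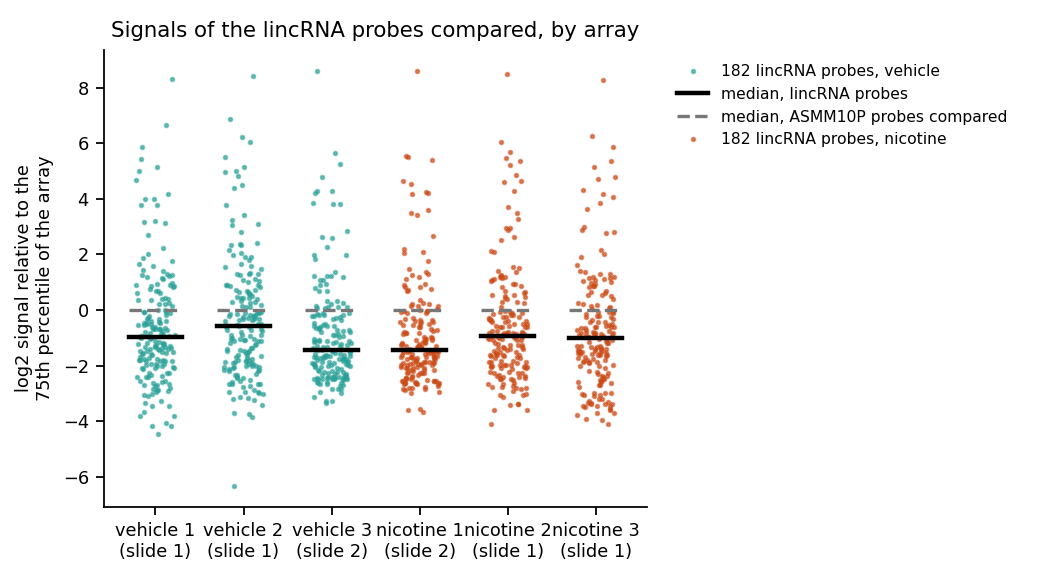
Log2 signal relative to the 75th percentile of the array (vertical axis) of the 182 lincRNA probes compared, on each of the 6 arrays (horizontal axis). Each point is a probe, solid lines are medians of the lincRNA probes and dashed lines medians of the ASMM10P probes compared. The lincRNA medians run from -1.43 on vehicle replicate 3 to -0.58 on vehicle replicate 2.

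No lincRNA probe passed the thresholds of p under 0.05 and a change of 1.5-fold between nicotine and vehicle offspring in limma, which moderates each probe's variance with that of all probes, where 3.04% of all probes compared did. At p under 0.05 before adjustment the count was 0 of 182, against 3.39% of all probes, and after Benjamini-Hochberg adjustment over all 30233 probes it was 0, against 0.0265%. On the same values, the methods' t-test put 2 lincRNA probes at p under 0.05 before adjustment (1.1%, against 4.34% of all probes), humanlincRNA2438+ and mouselincRNA0484-, and none after it. The lowest p among the 182 in limma was 0.0562, and the lowest adjusted p was 1.00. The 182 probes had a median standard error of 0.38 on the log2 scale, above the 0.29 of all probes compared. A count of 0 therefore does not show that the lincRNA probes were alike in both groups.

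By the measured means, and without regard to p, 7 of the 182 probes differed by 1.5-fold or more (3.85%, against 7.3% of all probes). One of them, mouselincRNA1177-, was not well above background on any vehicle array, so that its difference is known only as a lower bound under 1.5-fold. On the measured values, humanlincRNA0717-, mouselincRNA0538- and mouselincRNA1177- were higher in nicotine offspring (1.65%, against 3.98%), and humanlincRNA1516-, mouselincRNA0133-, mouselincRNA1011+ and mouselincRNA1103- were lower (2.2%, against 3.32%). Of the lower ones, mouselincRNA1103- entered the comparison only through vehicle offspring, where it was high. The log2 differences of the 182, nicotine minus vehicle, ran from -0.93 to 1.24 with a median of -0.16 and quartiles of -0.33 and 0.07, and the median over all probes compared was -0.02. In number, 124 lincRNA probes were lower in nicotine offspring and 58 higher, so 68.1% were lower, against 52.2% of all probes compared. Single arrays moved this median, to 0.06 without vehicle replicate 2, to -0.02 without nicotine replicate 1 and to -0.27 without vehicle replicate 3. Leaving out 1 array also unbalances the slides, and the part of the slide in these shifts was not tested. On slide 1 alone the median was -0.20, and in the 1 pair of arrays on slide 2 it was 0.02.

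**Figure D3:**
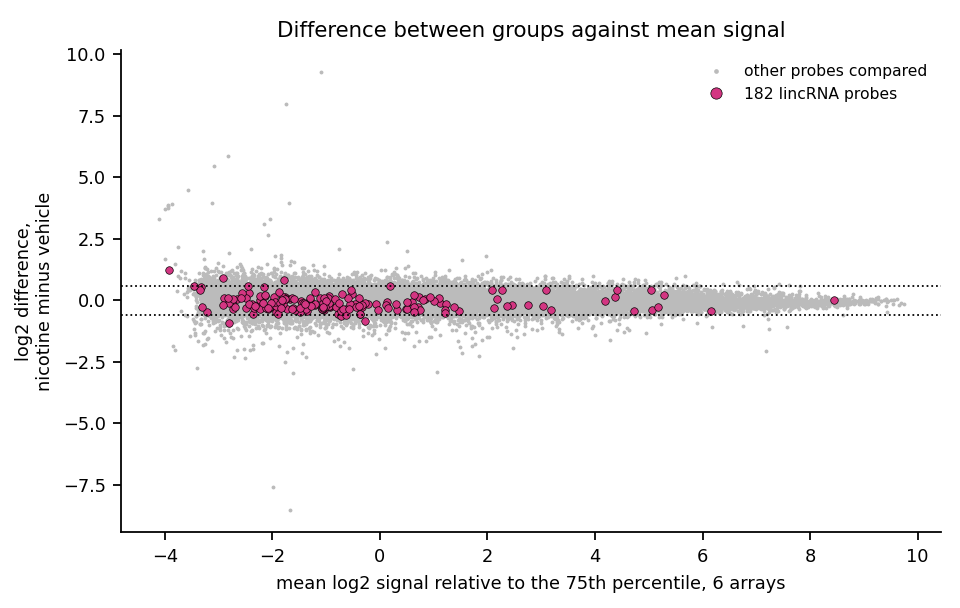
Log2 difference, nicotine minus vehicle (vertical axis), against the mean log2 signal over 6 arrays (horizontal axis) for all 30233 probes compared. Large points are the 182 lincRNA probes, small points all others, and dotted lines mark a 1.5-fold difference. The lincRNA probes lie between -0.93 and 1.24, mostly at signals below 0.

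Of the 5 largest differences toward nicotine offspring, 4 were at probes with a mean log2 signal below 0. The largest measured difference, though not the largest known one, was at mouselincRNA1177-, with log2 signals of -4.05, -6.33 and -3.26 in vehicle replicates 1, 2 and 3 and of -2.55, -3.61 and -3.77 in nicotine replicates 1, 2 and 3. It was not well above background on any vehicle array, and vehicle replicate 3 still lay above nicotine replicates 2 and 3. As the vehicle level, the lowest signal that counted as well above background was taken, or the probe's own signal where that was higher. On these values the nicotine mean was at least 1.20-fold higher (adjusted p = 1.00 in limma on the measured values). With normexp background correction the measured difference was 0.15 on the log2 scale, smaller than that bound. The bound therefore holds only for the background subtraction used here, and for means of groups that overlapped. The measured means were -4.55 in vehicle and -3.31 in nicotine offspring, and their difference of 1.24 was 0.35 without vehicle replicate 2 and 1.88 without vehicle replicate 3.

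The probe mouselincRNA0538- had log2 signals of -3.81, -3.85 and -2.43 in vehicle offspring and -1.92, -2.50 and -2.98 in nicotine offspring. Within each slide the nicotine arrays were the higher ones, and across slides the groups overlapped. The difference was 0.90 ± 0.45 (SE; limma, adjusted p = 1.00), and with slide entered as a block its adjusted p was 0.310. Without vehicle replicate 3 the difference was 1.36. Its plus partner, mouselincRNA0538+, was brighter and went the other way between slides, with 1.40, 1.28 and -0.09 in vehicle offspring and -0.36, 0.93 and 1.14 in nicotine offspring.

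At humanlincRNA0717- the vehicle arrays read -1.59, -2.96 and -2.07 and the nicotine arrays -1.28, -1.17 and -1.66. The groups overlapped only in that vehicle replicate 1 lay above nicotine replicate 3. It had the lowest p of the 182, with a difference of 0.84 ± 0.37 (SE; limma, adjusted p = 1.00), and a similar size within slide 1 (0.86) and between the arrays of slide 2 (0.79). Without vehicle replicate 2 the difference was 0.46, and without vehicle replicate 1 it was 1.14 and past both thresholds before adjustment. The plus partner was not well above background on any array.

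The last members of this group were mouselincRNA1606+ and mouselincRNA0664-. The first read -2.95, -3.13 and -2.11 in vehicle offspring and -1.45, -2.08 and -2.97 in nicotine offspring, a difference of 0.57 ± 0.44 (SE) with overlapping groups, which ran from 0.21 without nicotine replicate 1 to 0.97 without nicotine replicate 3. The other read -0.21, -0.17 and 0.09 in vehicle offspring and 0.83, 0.64 and -0.08 in nicotine offspring, a difference of 0.57 ± 0.29 (SE), where nicotine replicate 3 lay among the vehicle arrays. In limma both had an adjusted p of 1.00.

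Toward vehicle offspring the largest difference was at mouselincRNA1103-, with log2 signals of -1.55, -2.95 and -2.53 in vehicle offspring and -3.57, -3.61 and -2.64 in nicotine offspring. It was well above background on 3 vehicle and 2 nicotine arrays, and vehicle replicate 2 lay below nicotine replicate 3. The difference was -0.93 ± 0.43 (SE; limma, adjusted p = 1.00), with -0.88 on slide 1 and -1.04 on slide 2, and was -0.53 without vehicle replicate 1.

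The probe humanlincRNA1516- read 0.83, 0.69 and -1.13 in vehicle offspring and -1.21, -0.62 and -0.25 in nicotine offspring. Vehicle replicates 1 and 2 were the high arrays, and the array of slide 2 was the lowest in each group. Its difference was -0.83 ± 0.54 (SE; limma, adjusted p = 1.00), which came from slide 1 (-1.20) and was small on slide 2 (-0.09). It was -0.48 without vehicle replicate 1, -0.55 without vehicle replicate 2 and -1.46 without vehicle replicate 3. With slide as a block its p was 0.0186 and its adjusted p 0.410.

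At mouselincRNA0133-, mouselincRNA1011+ and humanlincRNA2296+ the highest of the 6 arrays was vehicle replicate 2. The first read -1.03, 1.1 and -1.27 in vehicle offspring and -1.70, -1.53 and 0.07 in nicotine offspring, and its difference of -0.65 ± 0.72 (SE) turned to 0.10 without vehicle replicate 2 and was -1.21 without nicotine replicate 3. The next read -0.55, 0.72 and -1.20 against -1.05, -1.03 and -0.72, a difference of -0.59 ± 0.47 (SE) that was -0.06 without that array. For humanlincRNA2296+ the signals were 0.01, 0.82 and -1.07 against -1.29, -0.25 and -0.43, a difference of -0.58 ± 0.51 (SE), which was -0.13 without it. Without vehicle replicate 3 these differences were larger, -1.02 at mouselincRNA1011+ and -1.07 at humanlincRNA2296+, both past the thresholds before adjustment. That fit left nicotine replicate 1 as the only array of slide 2, so its differences also hold any difference between slides. With slide as a block, and on slide 1 alone, neither of these probes passed the thresholds. On slide 1 their differences were -0.97 at mouselincRNA1011+ and -0.75 at humanlincRNA2296+. On all arrays the 3 probes had overlapping groups and an adjusted p of 1.00 in limma.

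**Figure D4:**
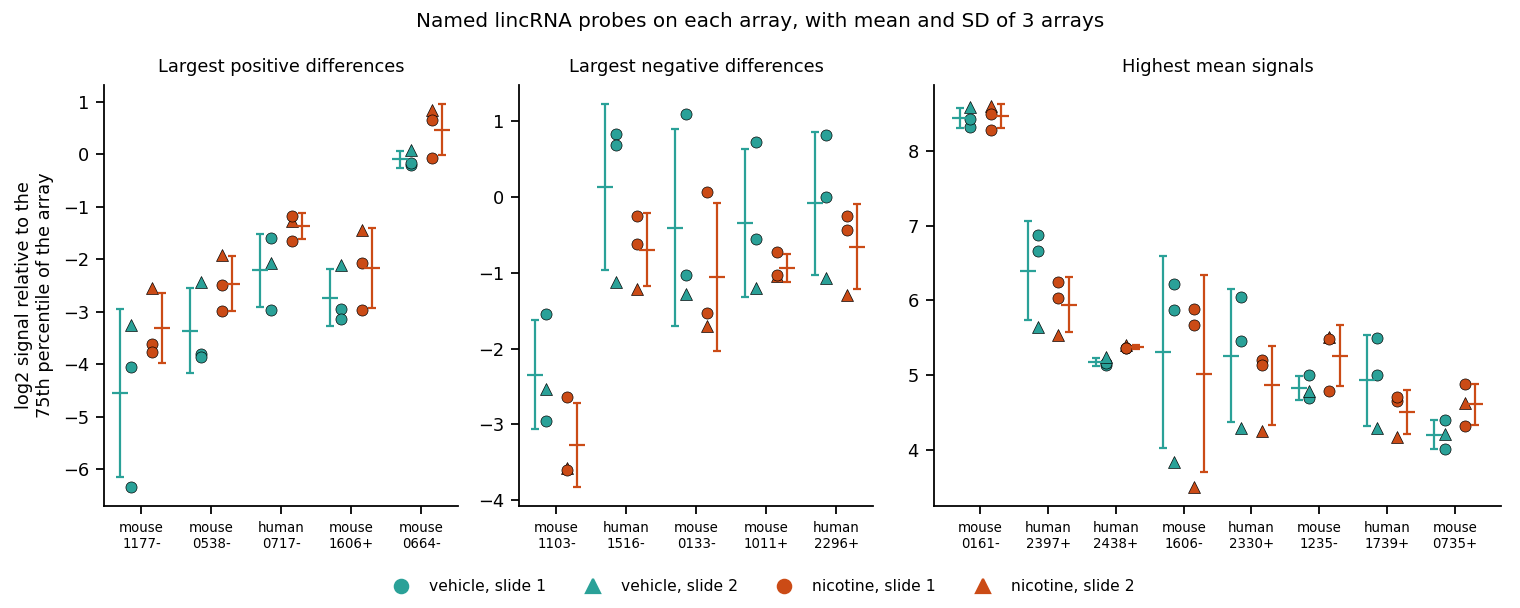
Log2 signal relative to the 75th percentile of the array (vertical axis) of the 18 named lincRNA probes (horizontal axis) on each array, with the mean and SD of 3 arrays per group beside the points. Circles are arrays of slide 1 and triangles arrays of slide 2. The triangles sit apart from the circles at many probes, as at mouselincRNA1606-, where they read 3.84 and 3.5 against 5.67 to 6.22 on slide 1.

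The brightest of all lincRNA probes was mouselincRNA0161-, with log2 signals of 8.32, 8.42 and 8.59 in vehicle offspring and 8.60, 8.49 and 8.29 in nicotine offspring. Its signal varied little among the 6 arrays, and the difference of 0.02 ± 0.21 (SE) lay within the spread between replicates. Its plus partner was not well above background on any array, so only the minus probe of this region number gave a signal.

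Next came humanlincRNA2397+, which read 6.66, 6.88 and 5.64 in vehicle offspring and 5.53, 6.03 and 6.25 in nicotine offspring. The slide 2 array was the lowest of each group. The difference was -0.46 ± 0.38 (SE; limma, adjusted p = 1.00, and 0.460 with slide as a block), and ran from -0.21 without vehicle replicate 2 to -0.83 without vehicle replicate 3. Its minus partner was dimmer, with 0.35, 0.70 and -1.03 against -1.16, 0.29 and 0.38, and showed the same low arrays.

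The probe humanlincRNA2438+ had the tightest groups among the named probes, with 5.13, 5.15 and 5.24 in vehicle offspring and 5.40, 5.36 and 5.36 in nicotine offspring. Every nicotine array was above every vehicle array. The group means were 5.17 ± 0.05 and 5.37 ± 0.03 (SD, n = 3 each), and the difference of 0.20 ± 0.19 (SE) did not pass in limma (adjusted p = 1.00). Groups that did not overlap were found for 5 of the 182 probes (2.75%), against 8.43% of all probes compared. That probe alone was higher in nicotine offspring (0.549%, against 4.69% of all probes), and 4 were lower (2.2%, against 3.74%). The 4 were humanlincRNA0114+, humanlincRNA0419-, humanlincRNA0644- and mouselincRNA0484-. Of these, humanlincRNA0419- and humanlincRNA0644- were well above background on 3 vehicle and 2 nicotine arrays, so they entered the comparison only through the group in which they were high. The probe mouselincRNA0484- read -0.43, -0.23 and -0.29 in vehicle offspring and -0.55, -0.62 and -0.59 in nicotine offspring.

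Of the other bright probes, mouselincRNA1606- read 5.87, 6.22 and 3.84 in vehicle offspring and 3.5, 5.67 and 5.88 in nicotine offspring. Both arrays of slide 2 were low, by a mean of -2.24 on the log2 scale (limma, group as a further term, adjusted p = 0.00129), while nicotine and vehicle differed by -0.29 ± 0.81 (SE). This direction turned with single arrays left out, from -1.03 without vehicle replicate 3 to 0.16 without vehicle replicate 2 and 0.46 without nicotine replicate 1. At humanlincRNA2330+ the arrays read 5.45, 6.04 and 4.28 against 4.25, 5.20 and 5.13, and at humanlincRNA1739+ 5.0, 5.49 and 4.29 against 4.17, 4.66 and 4.70. Each of these was again lowest on the slide 2 array of its group.

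Both mouselincRNA1235- and mouselincRNA0735+ had higher means in nicotine offspring. The first read 4.69, 5.0 and 4.78 in vehicle offspring and 5.50, 5.48 and 4.78 in nicotine offspring, a difference of 0.43 ± 0.27 (SE) that was 0.67 without nicotine replicate 3. The second read 4.0, 4.39 and 4.20 against 4.63, 4.87 and 4.32, a difference of 0.41 ± 0.24 (SE). In each the groups overlapped at nicotine replicate 3, and in limma the adjusted p was 1.00. The difference of mouselincRNA1235- was 0.29 on slide 1 and 0.72 on slide 2, and that of mouselincRNA0735+ was 0.40 and 0.42.

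Between slides more lincRNA probes differed than between groups. With group as a term in limma, 81 of the 182 differed between slide 2 and slide 1 at an adjusted p under 0.05 (44.5%, against 27.3% of all probes compared). Of these, 60 were lower on slide 2 (33.0%, against 14.6% of all probes) and 21 were higher (11.5%, against 12.7%). The filter asked for a signal on at least 1 array of slide 2. It thus left out the 161 lincRNA probes detected on the 4 arrays of slide 1 and on neither of slide 2. The median log2 difference, slide 2 minus slide 1, was -0.43 for the lincRNA probes and 0.20 for all probes. Under quantile normalization these medians were -0.36 and 0.22, with 58 lincRNA probes lower (31.9%, against 14.0% of all probes) and 25 higher (13.7%, against 14.0%). With no scaling between arrays the medians were -1.57 and -0.94, and 146 lincRNA probes were lower (80.2%, against 76.1%) and 5 higher (2.75%, against 0.572%), so there the share of lower lincRNA probes was close to that of all probes. The median of the lincRNA probes was below that of all probes under the 3 scalings. Slide cannot be told apart here from anything else the arrays of a slide share.

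Entering slide as a block lowered the median standard error of the lincRNA probes from 0.38 to 0.21. Then 12 of the 182 had a p under 0.05 before adjustment (6.59%, against 10.4% of all probes), of which 4 were higher (2.2%, against 5.38%) and 8 lower in nicotine offspring (4.4%, against 4.99%). Of these, humanlincRNA0522- and mouselincRNA0869- among the higher and mouselincRNA1400- among the lower probes entered the comparison only through the group in which they were high. Only humanlincRNA1516- and mouselincRNA0538- also differed by 1.5-fold (1.1%, against 4.91% of all probes). None had an adjusted p under 0.05 (0.0628% of all probes did), and the lowest was 0.310.

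Vehicle replicate 2 stood apart at these probes. It was the highest of the 6 arrays at 83 of the 182 (45.6%, against 26.9% of all probes compared). It was 1.5-fold or more above the mean of the other slide 1 arrays at 56 (30.8%, against 14.6%) and as far below it at 5 (2.75%, against 14.6%). The median log2 difference from those arrays was 0.26 for lincRNA probes and 0.02 for all probes. Without this array 2 lincRNA probes passed both thresholds, mouselincRNA0052- and mouselincRNA1103-, against 4.12% of all probes, of which mouselincRNA1103- entered the comparison only through vehicle offspring, where it was high. None had an adjusted p under 0.05, against 0.0198%.

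Most region numbers with a signal gave it at only 1 of their probes. Of the 864 region numbers with both signs, 14 had both probes among the 182, 153 had only 1 of them (76 plus and 77 minus) and 697 had neither. Where the plus probe was compared, the minus probe was too in 15.6%, and where the plus probe was not, in 9.95%. With a signal on any single array as the criterion, 104 region numbers had both signs, 362 had 1 and 398 had neither. On this criterion the minus probe had a signal in 37.4% of the region numbers whose plus probe had one and in 32.1% of the others. With a signal on all 6 arrays these counts were 10, 134 and 720.

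In the 14 region numbers with both probes compared, the plus and minus probe kept the same order on all arrays in 11, and their mean log2 signals were 0.27 to 7.61 apart, with a median of 1.36. The widest gap was at mouselincRNA1606, with 5.16 for the minus and -2.45 for the plus probe as means over 6 arrays. Next was mouselincRNA1235, whose plus probe read -1.75, -1.75 and -2.24 in vehicle offspring and -2.76, -1.97 and -2.0 in nicotine offspring. At humanlincRNA1016 the minus probe was the bright one, with means of 4.38 and -1.76. Probes bind with different strength, so a gap between 2 probes is not a ratio of 2 RNAs.

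The 2 probes of a region number also moved in opposite directions between slides at 6 of these 14, and at 3 both passed an adjusted p under 0.05. At humanlincRNA1747 the plus probe differed by -1.52 and the minus probe by 1.16, slide 2 minus slide 1. At mouselincRNA0538 these values were -1.41 and 1.11, and at mouselincRNA1606 they were 1.0 and -2.24. At humanlincRNA2163 both were lower on slide 2, by -0.85 and -2.75. The sign of the difference between nicotine and vehicle offspring was opposite at 5 of the 14. None of the probes at these 14 region numbers passed both thresholds in limma without the slide block, and with it mouselincRNA0538- did (adjusted p = 0.310).

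**Figure D5:**
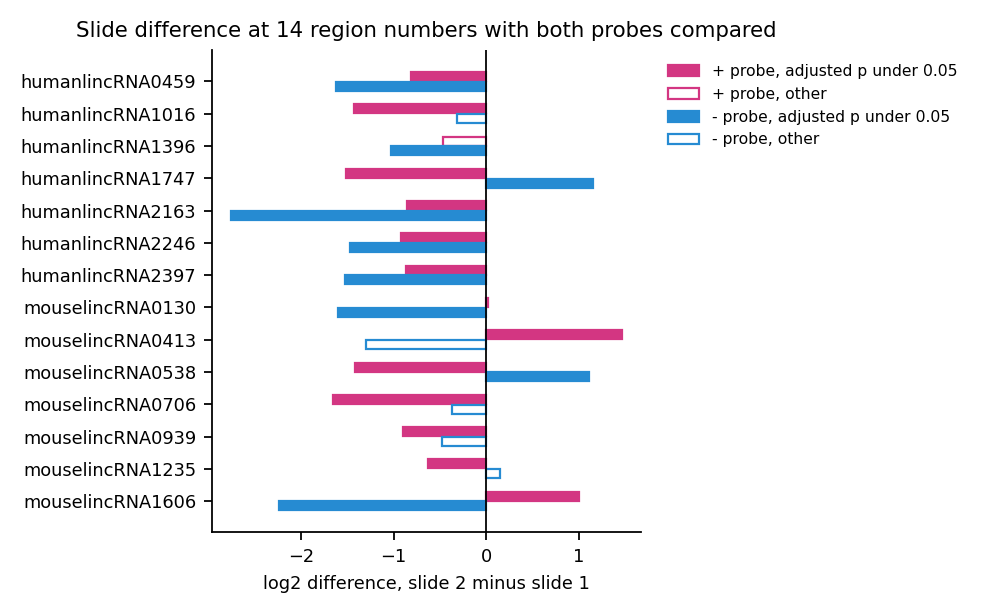
Log2 difference, slide 2 minus slide 1 (horizontal axis), of the plus and the minus probe at the 14 region numbers with both probes compared (vertical axis). Filled bars passed an adjusted p of 0.05 in limma, with group as a further term. At humanlincRNA1747, mouselincRNA0538 and mouselincRNA1606 filled bars point in opposite directions.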

How the data were processed

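Cy3-labelled RNA of the 6 hippocampal samples was read on Agilent 1-colour arrays. The authors deposited, per the file headers, background-subtracted spot intensities (gProcessedSignal) from Feature Extraction 11.0.1.1, with a design annotated on mm9, and a table of normalized log2 values, used as an alternative. Spots of control probes, 300 negative-control spots and the 21 to 46 outlier spots of each array were not used. The 75th percentile of each array was subtracted from log2 intensity, and spots of a probe were averaged. Probes well above background on all arrays of 1 group (30233 of 60915) were compared with limma 3.58.1 (R 4.3.3, lmFit and eBayes) and Benjamini-Hochberg adjustment. The number of arrays limits the precision.

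Named were probes past both thresholds, the 5 largest differences in each direction, the 8 highest mean signals and partners. Other probes given by name were chosen after their values were seen. The rule for members used names alone, but members, lists and tests were chosen with earlier results of these data known. The fit was tested on simulated data first. Alternatives were other normalizations, background correction and filters, slide or replicate as a block, the methods' t-test, a fold of 2 and each array left out. Slide 1 with its own filter, the slide 2 pair alone and the comparison of slides, with its scalings, were added after seeing the data. The share comparisons other than with ASMM10P probes were not among the planned results. Nor were the counts for vehicle replicate 2, for groups that did not overlap and for plus and minus pairs.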

Additional observations from a re-analysis of the deposited data

How the results depend on the processing

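No lincRNA probe had an adjusted p under 0.05 under any alternative run. The count past p under 0.05 and 1.5-fold, 0 as reported, was 2 with slide as a block, 8 on slide 1 alone (4.4%, against 4.72% of all probes), 28 of 405 on slide 1 with a filter on that slide (6.91%, against 5.18% of all probes), 8 of 574 with a signal on at least 1 array (1.39%, against 2.76%), and 12 of 1753 with no filter (0.685%, against 1.7%). With single arrays left out it ran from 0 to 12, the highest without vehicle replicate 3 (6.59%, against 6.75% of all probes), and was 5 without nicotine replicate 3 (2.75%, against 2.97%), 2 without vehicle replicate 2 (1.1%, against 4.12%) and 1 without vehicle replicate 1 or nicotine replicate 1 (0.549%, against 2.27% and 2.37%). It stayed at 0 under quantile normalization (2.99% of all probes), no normalization (0.509%), normexp (1.52%), a signal on all 6 arrays (2.51%), the authors' log2 values (2.99%), a fold of 2 (0.916%) and the methods' t-test (2.02%), and without nicotine replicate 2 (1.43%). These counts hold probes that entered the comparison only through the group in which they were high. They include humanlincRNA0522- on slide 1 alone, and humanlincRNA0522- and mouselincRNA1177- without vehicle replicate 3. Without nicotine replicate 3 or vehicle replicate 2 they include mouselincRNA1103-. The 28 and the counts under wider filters were not split this way. The median difference ran from -0.27 to 0.06 over all alternatives and was above 0 without vehicle replicate 2 and for the slide 2 pair. The share difference from ASMM10P probes ran from -40.8 to -40.4 with single arrays left out and the level difference from -3.43 to -3.10, where 5 arrays allow no p under 0.05. The level difference was -1.55 among detected probes and -0.75 with normexp. Of 322 values for the 18 named probes, 5 changed sign, each with an array left out. With normexp each of the largest differences was nearer 0. It was 0.15 (from 1.24) at mouselincRNA1177-, 0.28 (from 0.90) at mouselincRNA0538- and 0.16 (from 0.57) at mouselincRNA1606+. At humanlincRNA0717- it was 0.43 (from 0.84) and at mouselincRNA1103- -0.47 (from -0.93). Among the brightest probes it was further from 0 at humanlincRNA1739+, humanlincRNA2397+, humanlincRNA2438+, mouselincRNA0161-, mouselincRNA1235- and mouselincRNA1606-. With single arrays left out mouselincRNA0133- ran from -1.21 to 0.10 (above 0 without vehicle replicate 2), mouselincRNA0161- from -0.054 to 0.10 (below 0 without vehicle replicate 1 or nicotine replicate 1) and mouselincRNA1606- from -1.03 to 0.46 (above 0 without vehicle replicate 2 or nicotine replicate 1). The replicate block left the count at 0 of 182 (531 of all probes). The deviations of same-numbered arrays from their group means had correlations of -0.645, 0.447 and -0.692 across 30233 probes for replicates 1, 2 and 3. The arrays of replicate 2 both lay on slide 1, and those of replicates 1 and 3 on different slides. The correlations therefore cannot be told apart from the slide layout, and do not decide whether the number paired the arrays. Dim signal limits most lincRNA probes: 1179 were not well above background on any array.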
